A study of Mus musculus with 82 samples.

Results

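The 9 genes described here belong to the system that dissolves fibrin and to the start of blood coagulation. They are the plasminogen activators Plau and Plat, the receptor Plaur, the protease inhibitors Serpine2 and Serpinb2, tissue factor (F3) with the inhibitors Tfpi and Tfpi2, and thrombomodulin (Thbd). They were taken by name, with earlier results of these data known, out of 55401 genes in the count tables. All 9 passed the filter on low counts at both time points, as did 14528 genes in all.

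Gene expression was measured by RNA-sequencing of poly(A) RNA in primary cultures of smooth muscle cells from the aortas of C57BL/6 mice (aVSMC), used after up to 7 passages. All groups, controls included, had been grown in a medium with serum and EGF and were then kept for 24 h without serum and supplements. EGF (10 µg/L) is the ligand of the EGF receptor, AngII (10 nM) is angiotensin II, and U46619 (1 µM) is a stable thromboxane analog that activates the thromboxane receptor. After 24 h incubation there were 7 groups. Besides the control these were each substance alone, EGF paired with AngII, EGF paired with U46619, and all 3 together (EGF+AngII+U46619). Cells of 6 mice were used, so that n = 6 in every group. After 48 h there were 6 groups in 2 batches of 5 culture sets. Both had a control and EGF alone. The EGF/U46619 batch added U46619 with and without EGF, and the EGF/AngII batch added AngII with and without EGF, so that control and EGF had n = 10 and the other groups n = 5. The labels give the 10 culture sets of 48 h only 5 mouse numbers, whereas the methods name a different mouse for each replicate. No incubation with AngII and U46619 alone, and none with all 3 substances after 48 h, was analysed here.

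Plasmin is the protease that cuts fibrin and, in the vessel wall, other matrix proteins. It is made from plasminogen by the urokinase (Plau) and the tissue-type (Plat) plasminogen activator. Urokinase is held at the cell surface by its receptor, the product of Plaur. Both activators are blocked by serpins, among them Serpine2 (protease nexin 1, which inhibits thrombin as well) and Serpinb2 (plasminogen activator inhibitor 2). Coagulation in the wall starts when tissue factor, which smooth muscle cells and fibroblasts carry, meets factor VII, and the Tfpi protein blocks that complex. Tfpi2 encodes a related inhibitor of plasmin and other proteases in the matrix. Thrombomodulin binds thrombin and turns it towards activation of protein C, and it is best known from endothelial cells.

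The promoters of the 3 members that were differentially expressed against control after 24 h, and that of F3 for comparison, are shown as a reference for the levels below. Each runs from 250 bases before to 50 bases after a transcription start in RefSeq on GRCm38.p6, read along the strand of the gene. Matches to the motifs searched are in capitals.
Plaur, chr7:24462233-24462532, plus strand: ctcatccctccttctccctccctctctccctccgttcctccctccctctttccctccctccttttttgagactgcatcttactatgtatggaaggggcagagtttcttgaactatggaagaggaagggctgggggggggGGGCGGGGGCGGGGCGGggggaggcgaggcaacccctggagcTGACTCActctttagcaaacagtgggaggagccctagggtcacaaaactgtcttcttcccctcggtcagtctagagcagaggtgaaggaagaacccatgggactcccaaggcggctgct
Serpinb2, chr1:107511173-107511472, plus strand: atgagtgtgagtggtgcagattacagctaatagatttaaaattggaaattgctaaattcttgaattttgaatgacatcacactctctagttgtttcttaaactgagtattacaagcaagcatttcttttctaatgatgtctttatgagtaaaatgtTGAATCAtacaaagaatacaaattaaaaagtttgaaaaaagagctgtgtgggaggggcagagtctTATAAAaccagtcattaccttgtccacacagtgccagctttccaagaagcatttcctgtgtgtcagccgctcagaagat
Serpine2, chr1:79858616-79858915, minus strand: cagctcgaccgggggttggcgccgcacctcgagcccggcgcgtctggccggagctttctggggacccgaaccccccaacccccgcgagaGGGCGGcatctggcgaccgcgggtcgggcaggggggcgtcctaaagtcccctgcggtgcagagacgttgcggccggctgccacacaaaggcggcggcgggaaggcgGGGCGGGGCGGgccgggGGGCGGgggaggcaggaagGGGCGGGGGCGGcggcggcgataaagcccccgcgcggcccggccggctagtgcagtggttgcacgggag
F3, chr3:121723287-121723586, plus strand: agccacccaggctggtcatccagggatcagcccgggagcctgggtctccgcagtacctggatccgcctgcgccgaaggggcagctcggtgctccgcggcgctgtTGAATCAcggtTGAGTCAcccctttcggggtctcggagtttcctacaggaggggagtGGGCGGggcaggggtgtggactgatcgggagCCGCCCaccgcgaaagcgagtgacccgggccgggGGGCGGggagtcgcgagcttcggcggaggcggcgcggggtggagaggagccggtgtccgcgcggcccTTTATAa

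Both strands were searched for AP-1 (TGANTCA), CRE (TGACGTCA), TEAD (GGAATG), NF-kB (GGG and TTTCC with 2 bases of any kind between them), the GC box (GGGCGG), the TATA box (TATAAA) and the CArG box, and matches could overlap. Of 32851 promoters in the table, 7.81% hold the AP-1 letters, 35.7% the GC box and 13.6% the TATA box. The Plaur promoter has TGACTCA 69 bases before the start and 3 GC boxes, and the Serpinb2 promoter has TGAATCA 94 bases before the start and TATAAA 29 bases before it. The Serpine2 promoter has 6 GC boxes and no AP-1 letters, and its start lies inside the gene as GENCODE annotates it. F3, which was no DEG after 24 h, has 2 AP-1 matches, 146 and 135 bases before the start. Of all 9 members 6 had a promoter in the table. Tfpi and Tfpi2 are the other two, and their windows nearest to the annotated start hold no AP-1 letters, while a window at a further start of Tfpi2 has TGAATCA 77 bases before it. CRE (1.79% of all promoters), TEAD (14.7%), NF-kB (1.63%) and the CArG box (1.63%) were not found in the windows of these 6 genes. A match is a stretch of letters and was not tested as a binding site.

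The libraries held 16483529 to 20818809 counts after 24 h and 19936925 to 33916114 after 48 h. The smooth muscle marker Acta2 was present in every library, from 287 to 15164 FPM (CPM computed on the TMM-scaled library size), while Tagln and Cnn1 are listed at 0, as are all 7075 genes of chromosomes 9, X, Y and MT. Acta2 was higher after 24 h with U46619 (log2-fold change 2.05, FDR = 0.000202 in edgeR) and with EGF+U46619 (1.62, FDR = 0.00127). Of 7 smooth muscle genes 5 were tested, and 2 were higher with U46619 (Acta2 and Lmod1) and 1 with EGF+U46619 (Acta2). Of all genes tested, 12.9% and 16.3% were higher with these incubations. Higher and lower are used in this paragraph by the rule for differential expression given further below. The median log2-fold change of the 5 was 0.29 and 0.25. The sum of the 7 had a median of 2627 FPM in the controls (1256 to 5377), 11976 FPM with U46619 (4425 to 15182) and 9692 FPM with EGF+U46619 (1719 to 13054). Most of this sum was Acta2, whose median over the 24 h libraries was 3341 FPM, with Smtn next at 120 FPM. Markers of other cell types were present and very uneven between mice. In the 24 h controls, the endothelial gene Pecam1 stood at 0.419 FPM in mouse 1, 0.667 in mouse 2, 5.88 in mouse 3, 334.5 in mouse 4, 214 in mouse 5 and 864 in mouse 6. In the 48 h controls it ranged from 0.343 to 882 FPM. Cdh5 is listed at 0 in every library, although it lies on chromosome 8, which is not among the chromosomes listed at 0. The reason was not tested. The sum of 8 endothelial genes had a median of 256 FPM in the 24 h controls (3.05 to 2029) and 194 FPM with EGF+U46619 (1.65 to 2273). Of these 8 genes 7 were tested, and Cldn5 was lower after 24 h with U46619 and with EGF+U46619. The median log2-fold change of the 7 was −0.44 and −0.39, against −0.06 and −0.05 for all genes tested. Of 8 genes of adventitial fibroblasts, after 24 h 7 were lower with U46619 and 7 with EGF+U46619, where 13.9% and 15.8% of all genes were lower. Among them were Scara5 (log2-fold change −3.29 with U46619) and Pi16 (−1.47). The median of the sum of the 8 was 987 FPM in the controls (724 to 3648) against 504 with U46619 (239 to 2289). Of 6 macrophage and leukocyte genes 3 were tested, and after 24 h Csf1r was higher and Cd14 lower with U46619 (log2-fold changes 1.08 and −0.86) and with EGF+U46619 (0.68 and −0.70). The sum of the 6 had a median of 13.8 FPM in the controls (6.75 to 49.3), 23.5 FPM with U46619 (6.499 to 39.9) and 20.3 FPM with EGF+U46619 (5.32 to 36.3). The defining genes Ptprc and Adgre1 had at most 0.0541 and 0.133 FPM after 24 h, and up to 5.46 and 33.1 FPM after 48 h. In cultures measured as a whole, fewer cells of a type and less RNA per cell cannot be told apart, and the part of these cell types in the results below was not tested. One control library of 48 h went against its label. The control of set 4 of the EGF/AngII batch correlated at r = 0.939 to 0.941 with its own set and at 0.997 with a library of set 2 of that batch, over log2 FPM. The fits over both batches of 48 h hold this library, and the values of Plaur, Serpinb2, Serpine2 and Plau against control are given with and without it. The control of set 2 of that batch also differed from its own set (r = 0.9851 to 0.9874, and 0.9869 with a library of set 1). Its sum of macrophage and leukocyte genes was 47.6 FPM, against 12.3, 10.9 and 10.7 FPM with AngII, EGF and EGF+AngII. Both versions of these values hold that second control, and its label was not tested.

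Per kilobase of exon, F3 was the most abundant member in the 24 h controls, at a mean of 117 FPM per kb, followed by Plau (48.5), Plat (28.4), Tfpi (19.9), Thbd (17.6), Serpine2 (17.5), Plaur (9.78), Tfpi2 (1.2) and Serpinb2 (0.0300). With EGF+U46619 Plaur (63.6 FPM per kb) stood second, behind F3 (81.4) and ahead of Plau (52.2). The members fell into genes that followed the incubation and genes that followed the mouse. Of the sum of squares of log2 levels over the 42 libraries of 24 h, the incubation held 68.4% for Plaur and 61.6% for Serpinb2, against 17.7% and 16.4% for the mouse. For Thbd the mouse held 93.8% and the incubation 0.721%, and for Tfpi2 (92.4%), Tfpi (88.6%), F3 (87.0%) and Serpine2 (79.5%) the mouse also held most. Plau (33.8% mouse, 24.7% incubation) and Plat (33.7% and 32.0%) lay between them.

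**Figure D1:**
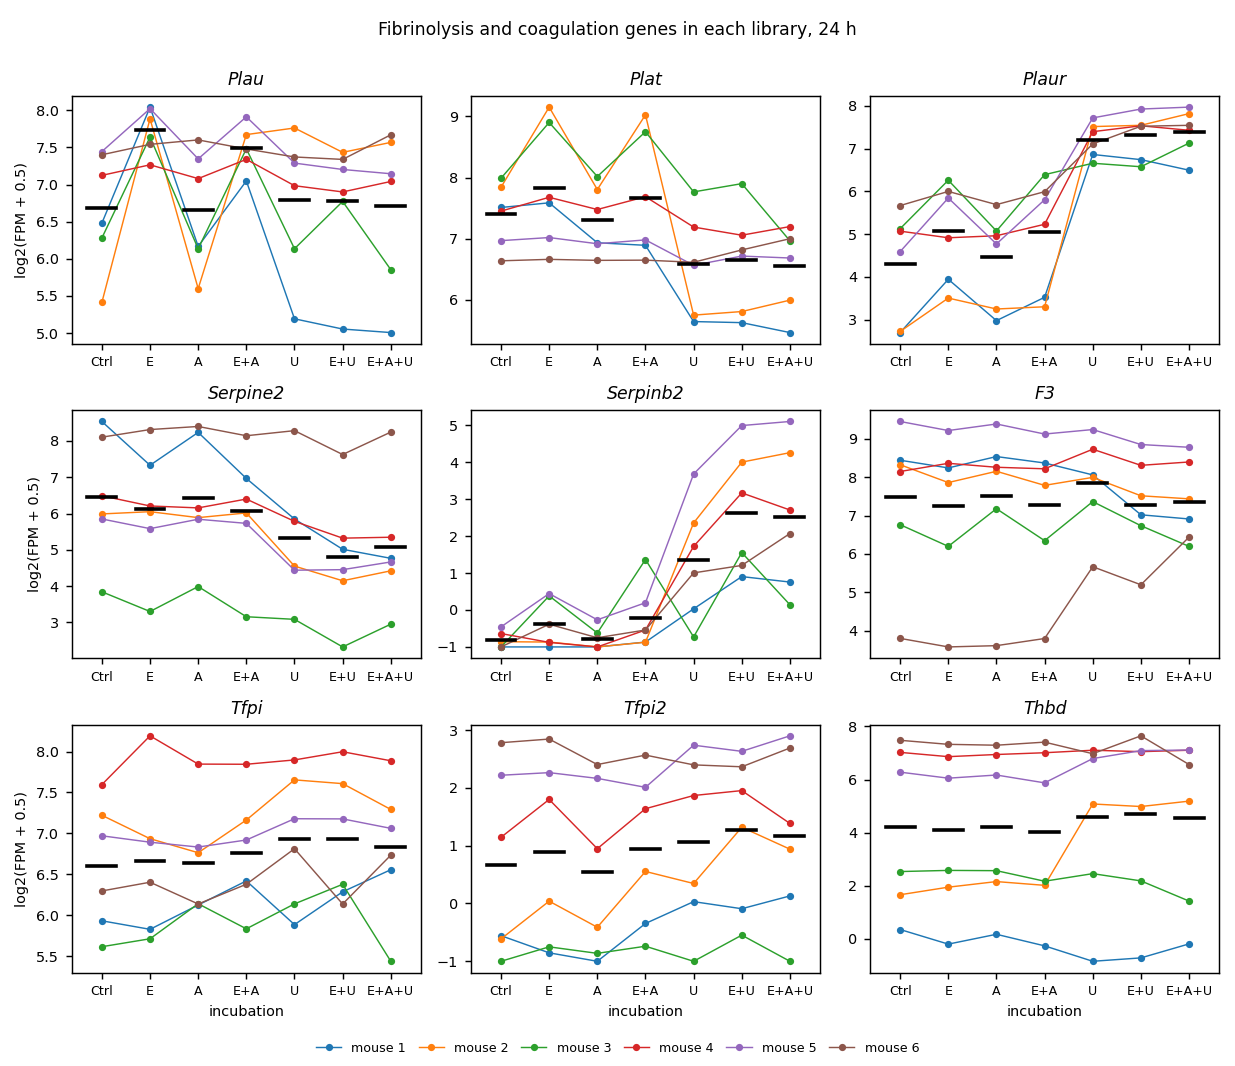
Levels of the 9 members after 24 h incubation, as log2(FPM + 0.5), by group, with 1 point per mouse. Plaur and Serpinb2 shift with every incubation that holds U46619 (Plaur 100.5 to 210.1 FPM with U46619 against 5.99 to 50.4 in the controls), whereas the points of Thbd, F3, Tfpi and Tfpi2 differ more between mice than between groups.

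A member counted as differentially expressed (DEG) in a comparison when edgeR (quasi-likelihood test) and DESeq2 (Wald test) each gave it an FDR under 0.05, with the mouse as a term, and a group compared had a mean of at least 5 FPM. After 24 h, U46619 against control gave 2 DEG among the 9 members, Plaur higher and Serpine2 lower, where 26.8% of all 14528 genes tested were DEG (12.9% higher and 13.9% lower). EGF+U46619 and EGF+AngII+U46619 each gave 3, Plaur and Serpinb2 higher and Serpine2 lower. The background was 32.1% (16.3% higher, 15.8% lower) and 33.4% (17.7% and 15.7%). So about as large a share of the members as of all genes changed. The median log2-fold change of the members was 0.34 with EGF+U46619 and that of all genes tested −0.05.

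Without U46619 no member was a DEG after 24 h. EGF alone gave 0 of 9 (0.0275% of all genes), with 1 member under an unadjusted p of 0.05 in edgeR (Plau) and 3 in DESeq2 (Plau, Plaur and Serpinb2). AngII gave 0 of 9 (0% of all genes, although 62 were under an unadjusted p of 0.05 by edgeR and also by DESeq2), and 0 members were under that p in edgeR or in DESeq2. EGF+AngII gave 0 of 9 (3.13% of all genes), with 2 members under that p in edgeR (Serpinb2 and Plau) and 3 in DESeq2 (these and Plaur), and Serpinb2 had an FDR of 0.0439 in DESeq2 and of 0.0868 in edgeR.

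Plaur, the urokinase receptor (chr7:24462484-24475968 on GRCm38, plus strand), was the member with the clearest response. In the 24 h controls it had 5.99 FPM in mouse 1, 6.11 in mouse 2, 34.4 in mouse 3, 33.1 in mouse 4, 23.6 in mouse 5 and 50.4 in mouse 6. With U46619 it had 116, 182.5, 100.5, 167.99, 210.1 and 138 FPM in the same order. The lowest U46619 library was above the highest control, and the mice that started lowest, 1 and 2, had the largest ratios to their controls. How many of all genes separate their groups in this way, here and below, was not counted. The log2-fold change was 2.95 (SE 0.41, 95% interval 2.12 to 3.79, FDR = 9.5e-06 in edgeR and 6.83e-12 in DESeq2), from 25.6 ± 17.4 to 152.5 ± 41.8 FPM (SD, n = 6). With EGF+U46619 the lowest, median and highest values were 94.9, 184.2 and 243 FPM (log2-fold change 3.02, SE 0.41, FDR = 2.26e-06 in edgeR), and with EGF+AngII+U46619 they were 89.8, 179.1 and 250.4 FPM (3.09, SE 0.41, FDR = 1.2e-06 in edgeR). The 3 groups with U46619 did not differ from each other beyond their spread. EGF+U46619 against U46619 gave 0.07 (95% interval −0.69 to 0.83), and EGF+AngII+U46619 against EGF+U46619 gave 0.07 (−0.69 to 0.83).

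EGF alone gave Plaur 42.02 ± 27.3 FPM (SD, n = 6), above the matching control for 5 of 6 mice, but the log2-fold change of 0.75 (SE 0.38, 95% interval −0.03 to 1.53) did not pass the test (FDR = 0.302 in edgeR and 0.335 in DESeq2). Against EGF, Plaur was higher with U46619 (log2-fold change 2.21, SE 0.40, FDR = 0.000589 in edgeR) and with EGF+U46619 (2.28, SE 0.40, FDR = 0.000352 in edgeR). In order of mean level the groups ran from EGF+AngII+U46619 (177.2 FPM) over EGF+U46619 (166.5), U46619 (152.5), EGF+AngII (43.2), EGF (42.02) and AngII (26.4) to control (25.6). Between neighbours in this order, the mean difference within mice exceeded its SD only from U46619 to EGF+AngII (2.17 ± 1.44 on the log2 scale) and from EGF to AngII (0.62 ± 0.51).

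Serpinb2, the inhibitor of urokinase that is found mostly inside cells (chr1:107511423-107535478, plus strand), was nearly absent without U46619. The 24 h controls had 0, 1, 0, 3, 5 and 0 counts, in the order of the mice, a mean of 0.0704 FPM. With U46619 the lowest, median and highest values were 0.103, 2.15 and 12.3 FPM, and with EGF+U46619 they were 1.37, 5.47 and 31.4 FPM, from 25 to 611 counts per library. Mice 5 and 2 stood highest with either incubation (12.3 and 4.62 FPM with U46619, 31.4 and 15.5 FPM with EGF+U46619), and every EGF+U46619 library was above every control. The log2-fold change against control was 6.90 with EGF+U46619 (SE 0.95, FDR = 2.5e-06 in edgeR, 1.05e-10 in DESeq2) and 6.94 with EGF+AngII+U46619 (SE 0.96, FDR = 1.65e-06 in edgeR). These folds start from 9 counts over 6 control libraries, so their size is loosely set, with a 95% interval of 4.96 to 8.84 for EGF+U46619. The mean of Serpinb2 reached the minimum of 5 FPM only with EGF+U46619 and EGF+AngII+U46619 (10.2 and 10.7 FPM). Against control or EGF it could therefore be called only as higher. With U46619 alone the log2-fold change was 5.46 (SE 0.98) and both FDRs were under 0.05 (0.000108 in edgeR), but the mean of 3.65 FPM was under the minimum for a DEG.

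EGF added to U46619 gave more Serpinb2 than U46619 alone in 6 of 6 mice, by 1.29 ± 0.71 (SD) on the log2(FPM + 0.5) scale within mice. The fitted difference was 1.44 (SE 0.62, 95% interval 0.19 to 2.70, unadjusted p = 0.0254 in edgeR), and it did not hold over all genes (FDR = 1 in edgeR and in DESeq2). The departure from additivity on the log2 scale was −0.82 (95% interval −3.39 to 1.75). EGF alone reached 0.860 FPM at most, above the control in 3 of 6 mice, and EGF+AngII reached 2.08 FPM in mouse 3 and 0.646 FPM or less in the others. The exons of Serpinb2 overlap those of Serpinb10 on the same strand, and how reads in the overlap were assigned was not tested.

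Serpine2, which inhibits thrombin, urokinase and plasmin at the cell surface (chr1:79794197-79861180, minus strand), went the other way from Plaur. The 24 h controls had 371, 63.0, 13.9, 89.4, 57.2 and 275 FPM in mice 1 to 6. With U46619 the same mice had 57.2, 23.0, 7.98, 54.6, 21.2 and 311 FPM, and with EGF+U46619 31.8, 17.2, 4.51, 39.5, 21.4 and 197 FPM. All mice but mouse 6 were lower with U46619, and 6 of 6 with EGF+U46619. The groups overlapped because the mice differed so much from each other. The log2-fold change was −1.21 with U46619 (SE 0.29, FDR = 0.00182 in edgeR, 0.000382 in DESeq2), −1.73 with EGF+U46619 (SE 0.29, FDR = 3.26e-05 in edgeR) and −1.41 with EGF+AngII+U46619 (SE 0.29, FDR = 0.000283 in edgeR). Each of these calls rested on the mouse term and was lost without it (FDR = 0.645, 0.332 and 0.4999 in edgeR). EGF alone gave 112 ± 112 FPM against 145 ± 143 FPM in the controls (SD, n = 6, log2-fold change −0.43, FDR = 0.431 in edgeR).

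The activators Plau (chr14:20836660-20843385, plus strand) and Plat (chr8:22757727-22782844, plus strand) were highest with EGF and lower when U46619 was present. Plau had 88.8, 42.1, 77.2, 139, 173.7 and 168.5 FPM in the 24 h controls of mice 1 to 6. With EGF it had 263, 236, 199, 153.4, 259.6 and 185.8 FPM, above the control in 6 of 6 mice, most of all in mouse 2. The log2-fold change of 1.04 (SE 0.33, 95% interval 0.37 to 1.72) did not pass the test over all genes (FDR = 0.112 in edgeR and 0.0646 in DESeq2). With EGF+U46619 Plau had 32.7, 172.4, 109, 119, 147 and 161.4 FPM, below EGF alone in 6 of 6 mice. The drop was widest in mouse 1 and narrowest in mouse 6. EGF+U46619 against EGF gave −1.003 (SE 0.33, FDR = 0.0357 in edgeR, 0.0235 in DESeq2), and U46619 against EGF gave −0.99 (SE 0.33, FDR = 0.0444 and 0.0288). Against control, Plau had a log2-fold change of 0.06 with U46619 (95% interval −0.61 to 0.73) and of 0.04 with EGF+U46619 (−0.63 to 0.71). The departure from additivity of EGF and U46619 was −1.06 (SE 0.46, 95% interval −2.002 to −0.12, unadjusted p = 0.0282 in edgeR), with an FDR of 1 in edgeR and 0.938 in DESeq2.

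Plat had 181.9, 229, 254, 174.5, 125 and 99.2 FPM in the 24 h controls of mice 1 to 6. With EGF it had 192, 568.3, 477, 204, 129 and 100.8 FPM, above the control in 6 of 6 mice but by a large step only in mice 2 and 3. With U46619 it had 49.6, 53.4, 217, 146, 94.2 and 97.5 FPM, below the control in 6 of 6 mice and by a large step only in mice 1 and 2. Mice 4 to 6 took no large step with either. Against control neither passed the test (EGF log2-fold change 0.50, FDR = 0.426, and U46619 −0.76, FDR = 0.0747 in edgeR). U46619 against EGF gave −1.26 (SE 0.34, FDR = 0.0116 in edgeR, 0.00252 in DESeq2) and EGF+U46619 against EGF gave −1.19 (SE 0.34, FDR = 0.0149 and 0.00483).

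Compared directly with EGF, therefore, EGF+U46619 gave 5 DEG among the members after 24 h, Plaur and Serpinb2 higher and Serpine2, Plau and Plat lower, where 12.9% of all genes were DEG (6.75% higher, 6.17% lower). Serpine2 had a log2-fold change of −1.31 there (SE 0.29, FDR = 0.00223 in edgeR) and Serpinb2 of 4.64 (SE 0.79, FDR = 0.000269 in edgeR). With a mean of 0.337 FPM with EGF, Serpinb2 could be called there only as higher. U46619 against EGF gave 3, Plaur higher and Plau and Plat lower, where 11.1% were DEG (6.01% higher, 5.13% lower). The lower calls of Plau and Plat were the least firm. Without mouse 1, Plau had −0.57 in EGF+U46619 against EGF (FDR = 0.248 in edgeR) and Plat −1.03 (FDR = 0.0781), and without mouse 2 Plat had −0.76 (FDR = 0.0835). These comparisons share the EGF libraries, so they are not independent of each other.

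Other comparisons among the incubations of 24 h gave 0 DEG among the 9 members, and 0% of all genes were DEG in each. EGF+U46619 against U46619 had 1 member (Serpinb2) under an unadjusted p of 0.05 in edgeR and 0 in DESeq2, with 363 genes under it in both tools. EGF+AngII against EGF and EGF+AngII+U46619 against EGF+U46619 had 0 in either tool, with 63 and 756 genes. The departure from additivity of EGF and U46619 had 1 (Plau) in each tool, with 433 genes.

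**Figure D2:**
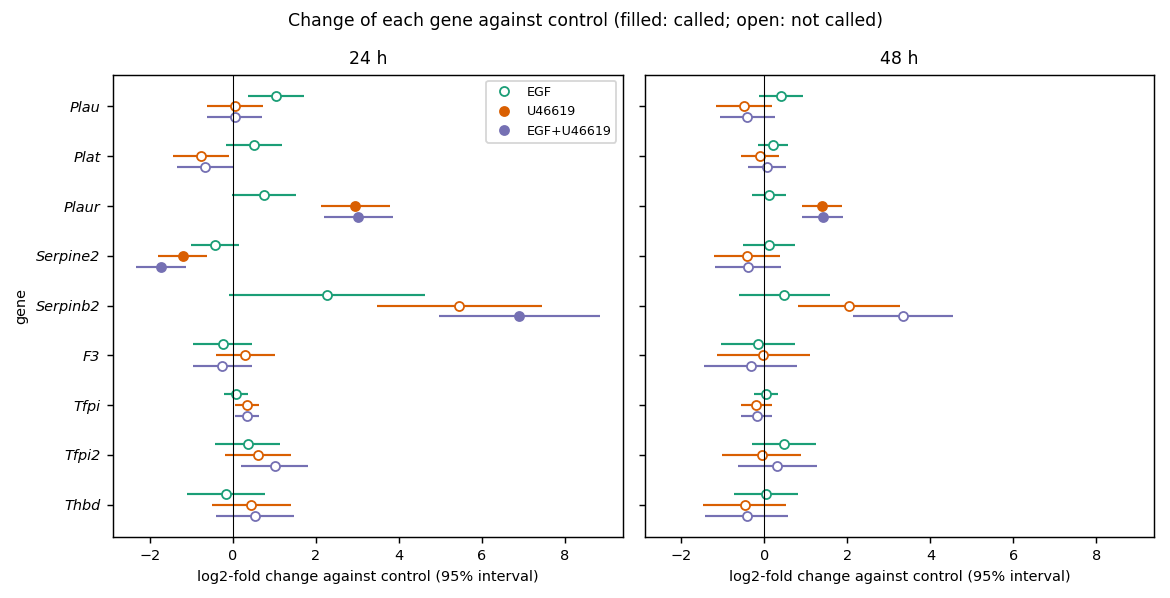
Log2-fold changes of the 9 members from edgeR with their 95% intervals, after 24 h and 48 h. The intervals of Plaur lie above 0 in each comparison with U46619 (2.12 to 3.79 for U46619 against control after 24 h, 0.89 to 1.88 after 48 h), and those of F3 and Thbd include 0 throughout.

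Tissue factor, F3 (chr3:121723537-121735048, plus strand), differed between mice far more than between incubations. The 24 h controls had 348, 321, 108, 284, 702 and 13.4 FPM in mice 1 to 6, and with U46619 they had 267, 255, 164.5, 425, 607 and 50.3 FPM. Mouse 5 was highest and mouse 6 lowest in every group except EGF+AngII+U46619, where mouse 3 was lowest (72.9 FPM). With EGF+U46619 F3 was below U46619 alone in 6 of 6 mice, by 0.57 ± 0.24 (SD) on the log2 scale within mice, but the fitted difference of −0.55 had a 95% interval of −1.26 to 0.16 (FDR = 1 in edgeR). Against control the log2-fold changes ran from −0.26 (EGF+U46619) to 0.29 (U46619), with intervals that included 0. Without mouse 6, EGF+AngII+U46619 against control gave 5 DEG in place of 3, F3 and Plat being the other two.

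Tfpi, the inhibitor of the tissue factor complex (chr2:84432855-84476775, minus strand), had 60.5, 148.7, 48.5, 193, 125 and 78.1 FPM in the 24 h controls. With U46619 it had 58.6, 201, 70.0, 238, 144 and 112 FPM, above the control in 5 of 6 mice. The log2-fold change was 0.34 (SE 0.14, 95% interval 0.05 to 0.63), and it did not pass the test over all genes (FDR = 0.0659 in edgeR and 0.0909 in DESeq2). EGF+U46619 gave the same value of 0.34 (FDR = 0.056 in edgeR). Mouse 4 was highest in every group. Tfpi2 (chr6:3962595-3988919, minus strand) was low, at 0.180, 0.154, 0, 1.71, 4.15 and 6.38 FPM in the controls, with mice 4, 5 and 6 above the others in every group. Its log2-fold change with EGF+U46619 was 1.01 (SE 0.40, FDR = 0.0402 in edgeR, 0.031 in DESeq2), but its mean of 2.72 FPM was under the minimum for a DEG.

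Thbd (chr2:148404466-148408188, minus strand) differed widely between mice, with 0.779, 2.67, 5.30, 129.7, 77.2 and 177.97 FPM in the 24 h controls of mice 1 to 6. The order of the mice was close to that of Pecam1, since both were low in mice 1, 2 and 3 and high in mice 4, 5 and 6. With U46619 Thbd had 0.0580, 33.4, 5.00, 137, 110.3 and 125 FPM. The widest differences were in mouse 2, which was higher, and in mouse 1, which was lower. The log2-fold change of 0.44 (95% interval −0.50 to 1.39) did not pass the test (FDR = 0.484 in edgeR). After 48 h high Thbd did not always come with Pecam1. In the controls, set 5 of the EGF/U46619 batch had 180.3 FPM of Thbd with 0.343 FPM of Pecam1, and set 6 of the EGF/AngII batch had 115 FPM with 4.26 FPM. The part of endothelial cells in the Thbd level was not tested.

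**Figure D3:**
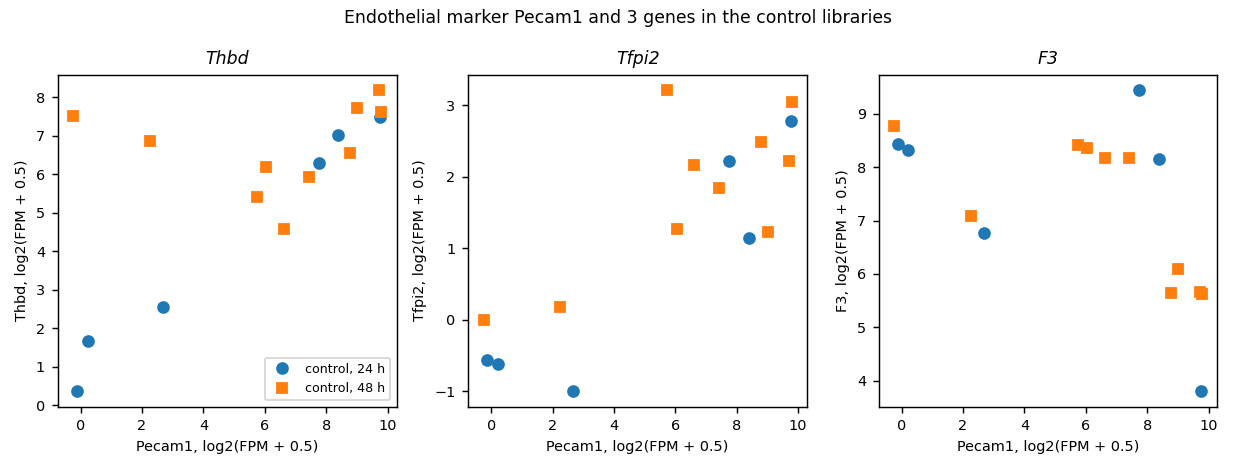
Control libraries of 24 h and 48 h, with Pecam1 on the horizontal axis and Thbd, Tfpi2 or F3 on the vertical axis, all as log2(FPM + 0.5), 1 point per library. The 24 h controls with Pecam1 of 214 FPM or more have Thbd of 77.2 FPM or more, while the 48 h control with the lowest Pecam1 (0.343 FPM) has 180.3 FPM of Thbd.

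After 48 h Plaur alone of the members was a DEG in the fit with the mouse of the labels. That fit had no term for the batch, and some mouse numbers occur in both batches. Groups with U46619 were therefore compared in part with control and EGF libraries of the EGF/AngII batch. The fit on the EGF/U46619 batch alone is given further below. In the EGF/U46619 batch the controls of sets 1 to 5 had 22.2, 23.3, 16.3, 48.2 and 35.0 FPM of Plaur, and with U46619 the same sets had 78.0, 73.5, 90.0, 115 and 63.5 FPM. With EGF+U46619 they had 79.9, 78.1, 93.2, 109 and 61.0 FPM. Both groups lay above all 10 controls, of which the highest had 53.0 FPM. The log2-fold change was 1.39 with U46619 (SE 0.24, FDR = 0.00123 in edgeR, 2.39e-05 in DESeq2) and 1.40 with EGF+U46619 (SE 0.24, FDR = 0.00054 in edgeR). Against EGF it was 1.28 with U46619 (SE 0.24, FDR = 0.00357 in edgeR) and 1.29 with EGF+U46619 (SE 0.24, FDR = 0.00169 in edgeR). Without the control of set 4 of the EGF/AngII batch, the values against control were 1.44 (FDR = 0.00116) and 1.45 (FDR = 0.000535). The difference between 24 h and 48 h was not tested.

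So U46619 against control gave 1 DEG of 9 members after 48 h (4.03% of all genes, 2.48% higher and 1.55% lower), EGF+U46619 against control gave 1 (6.85%, 3.84% higher and 3.01% lower), EGF+U46619 against EGF gave 1 (4.81%) and U46619 against EGF gave 1 (3.21%). The remaining comparisons of 48 h gave 0 of 9, and 0% of all genes in each. Under an unadjusted p of 0.05, EGF had 0 members in edgeR and 0 in DESeq2 (123 genes in both tools), AngII had 2 in each tool (Serpinb2 and Plau, 222 genes), EGF+AngII had the same 2 (266 genes), EGF+U46619 against U46619 had 1 (Serpinb2, 47 genes), and the departure from additivity had 0 (32 genes). Plau with AngII and EGF+AngII was also fitted without the control that went against its label. In sets 1, 2, 4, 5 and 6 of the EGF/AngII batch, Plau had 103, 58.9, 55.5, 52.5 and 45.5 FPM in the controls and 115, 52.9, 280.4, 72.6 and 40.6 FPM with AngII. Set 4 alone moved by more than 1.5-fold. The log2-fold change of Plau with AngII was 0.72 (SE 0.32, unadjusted p = 0.0295 in edgeR), and it was 0.62 (p = 0.0614) without that control and 0.15 (p = 0.166) when the culture set also took the place of the mouse number. With EGF+AngII it was 0.71 (p = 0.0309), 0.62 (p = 0.063) and 0.16 (p = 0.144) in the same order. Serpinb2 had 1.84 with AngII (p = 0.00412) and 1.30 with EGF+AngII (p = 0.0416), and 1.88 (p = 0.00552) and 1.33 (p = 0.0463) without that control, and none of these passed the test over all genes.

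**Figure D4:**
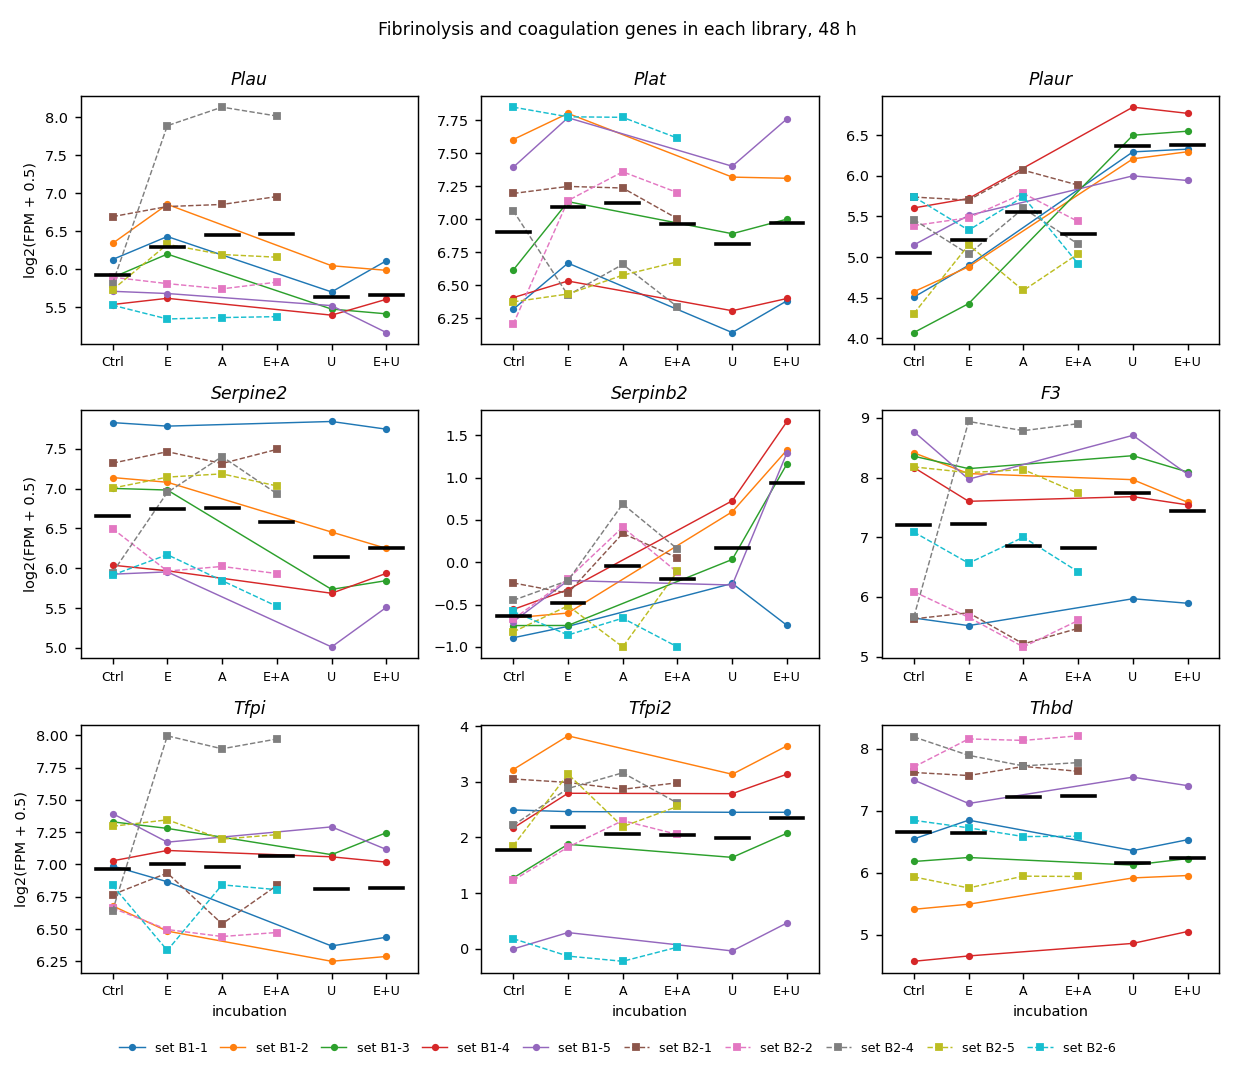
Levels of the 9 members after 48 h incubation, as log2(FPM + 0.5), by group, with 1 point per library and the batch marked. All U46619 and EGF+U46619 libraries lie between 61.0 and 115 FPM of Plaur, above the highest control at 53.0 FPM.

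Fitted on the EGF/U46619 batch alone, and blocked by culture set rather than by mouse number, more members passed the test after 48 h, as did more of all genes. U46619 against control gave 3 DEG of 9, Plaur higher and Serpine2 and Tfpi lower, where 21.9% of 14179 genes were DEG. EGF+U46619 against control gave 5, Plaur and Tfpi2 higher and Serpine2, Tfpi and F3 lower, where 26.6% were DEG. Tfpi2 had a mean of 5.97 FPM with EGF+U46619, 4.55 FPM with U46619 and 3.79 FPM in the controls of both batches. It met the minimum of 5 FPM only through the group where it was higher, so it could be called only as higher. EGF+U46619 against EGF gave 3 (14.2% of genes) and U46619 against EGF gave 4 (11.5% of genes), Plaur higher and Serpine2 and Plau lower in both, and Plat lower in the second. In this fit Plaur had a log2-fold change of 1.59 with U46619 (SE 0.20) and 1.61 with EGF+U46619 (SE 0.20), close to the fit over both batches.

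Serpine2 passed the test with the culture set as block, within the batch and over both batches, and not with the mouse of the labels. In sets 1 to 5 of that batch the controls had 227, 140.3, 128, 65.2 and 60.3 FPM, and with U46619 they had 229, 87.2, 52.8, 51.0 and 31.8 FPM. Sets 2 to 5 were lower and set 1 stood at the same level. The log2-fold change was −0.63 within the batch (SE 0.16, FDR = 0.00974 in edgeR) and −0.59 over both batches with the culture set (SE 0.18, FDR = 0.0282). With the mouse of the labels it was −0.42 over both batches (SE 0.39, FDR = 0.536), and −0.47 (FDR = 0.539) without the control of set 4 of the EGF/AngII batch. Tfpi had 126, 102, 160.4, 129.97 and 167.6 FPM in the controls of sets 1 to 5 and 82.1, 75.6, 134, 133 and 156.1 FPM with U46619, lower in 4 of 5 sets. Its log2-fold change there was −0.27 (SE 0.09, FDR = 0.0283 in edgeR), the opposite sign to the 0.34 after 24 h, which had not passed the test. F3 fell with EGF+U46619 from 49.6, 341, 328, 287 and 437 FPM to 59.0, 192, 273, 186.1 and 266 FPM, lower in 4 of 5 sets (−0.44, SE 0.13, FDR = 0.0169 in edgeR). Plau was lower with U46619 than with EGF in 5 of 5 sets (−0.54, SE 0.11, FDR = 0.00433 in edgeR), as after 24 h, where the same difference was −0.99.

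Serpinb2 was low after 48 h. The controls had 0.0389 to 0.344 FPM, and EGF+U46619 gave 0.0965, 2.01, 1.74, 2.67 and 1.95 FPM in sets 1 to 5. All sets but set 1 were above every control. The log2-fold change of 3.34 (SE 0.59) passed both tests (FDR = 0.000627 in edgeR), but the mean of 1.69 FPM was under the minimum for a DEG. With U46619 alone it was 2.03 (SE 0.60, FDR = 0.0463 in edgeR). Without the control of set 4 of the EGF/AngII batch these values were 3.36 (FDR = 0.000863) and 2.05 (FDR = 0.056), so that the second no longer passed in edgeR. Thbd ran from 23.3 to 293 FPM in the 48 h controls, and its log2-fold changes had intervals that included 0 in every comparison.

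The other genes of the pathway were listed by role. Among the inhibitors and clearance genes, Serping1, the C1 inhibitor, which also blocks contact factors, fell with EGF+U46619 after 24 h (−2.31, SE 0.34, FDR = 6.05e-06 in edgeR). Lrp1, the endocytic receptor that clears activator and serpin complexes, was lower with U46619 (−0.47, FDR = 0.0403 in edgeR) but with EGF+U46619 had −0.36 (FDR = 0.112).

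Of 5 genes for plasminogen and its receptors 3 were tested. Anxa2 was not, and it is listed at 0 in the controls of 24 h and 48 h. As whole chromosomes are listed at 0, a lack of expression cannot be read from such a value. Eno1, an enzyme of glycolysis that also binds plasminogen at the cell surface, was higher with EGF+U46619 (1.45, SE 0.26, FDR = 5.34e-05 in edgeR). Of 7 thrombin receptors and genes of the protein C pathway 5 were tested. F2r, the main thrombin receptor, was higher (0.89, SE 0.20, FDR = 0.000725 in edgeR), and Pros1, protein S, the cofactor of activated protein C, was lower (−0.66, SE 0.19, FDR = 0.00527 in edgeR). Of 17 coagulation factors and their enzymes 4 were tested, and F8 and F9 are listed at 0 in the controls as Anxa2 is. Vkorc1 and Ggcx, which carry out the vitamin K cycle and the carboxylation that clotting factors need, were lower (−0.88 and −0.45, FDR = 0.0103 and 0.0305 in edgeR), and Vkorc1 was also lower after 48 h (−0.95, FDR = 0.0494 in edgeR). Serping1 was also lower with U46619 (−1.80, FDR = 0.000154 in edgeR) and with EGF+AngII (−1.41, FDR = 0.0367), the latter without U46619. No gene named from these 4 lists was a DEG with EGF or AngII alone after 24 h, where 4 and 0 of all genes were DEG.

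The genes whose pattern over the 42 libraries of 24 h was most like that of a member, after the mean of each mouse was subtracted, were found among 10599 genes by Pearson's r of log2(FPM + 0.5). Plaur was closest to Uck2 (r = 0.988), a uridine and cytidine kinase, followed by Stip1 (0.987) and Tnfrsf12a (0.985), the receptor of the cytokine TWEAK. Serpinb2 was closest to Slc20a2 (0.930), a phosphate transporter, Serpine2 to Tmem59 (0.946) and Plat to Plxnc1 (0.936). The members that changed less with the incubation had looser neighbours, with Dnttip2 for Tfpi (0.900), Gfod1 for Thbd (0.837), Pdcd11 for Tfpi2 (0.790), Sting1 for Plau (0.759) and Aebp1 for F3 (0.661). Among the members themselves, Plaur and Serpinb2 varied together (r = 0.878), as did Serpine2 and Plat (0.719), and Plaur and Serpine2 varied in opposite directions (−0.872). The libraries share mice and incubations, and these values are descriptions.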

How the data were processed

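Poly(A) RNA of 82 aVSMC cultures was sequenced. Per the methods of the study, alignment by the authors used HISAT2 2.1.0 and mm10, exon counts came from featureCounts with multi-mapping reads included, and the deposited values are raw counts per gene. The strand setting is not given in the sources used here. Totals ran from 16483529 to 33916114 counts per library.

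Each time point was fitted once with mouse number and incubation as terms, in edgeR 4.0.16 (quasi-likelihood F test, TMM library sizes, filterByExpr) and DESeq2 1.42.0 (Wald test) under R 4.3.3, with contrasts between groups. The fit of 48 h over both batches held no term for the batch. FDRs (Benjamini-Hochberg) cover all genes tested. A DEG needed an FDR under 0.05 from edgeR and from DESeq2, a mean of at least 5 FPM in a group compared, and passed the filter at both time points. FPM are CPM computed on the TMM-scaled library size. SEs are the log2-fold change over the root of the F statistic. DESeq2 was first run on the filtered genes, and after both sets of calls had been seen it was run on all genes with a count and its own independent filtering, as in the study's methods. The earlier version is kept among the alternatives.

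Libraries with the same number deviated together from their group means (correlation over 0.1 in 126 of 126 pairs after 24 h and in 57 of 60 pairs after 48 h, the exceptions all with the control of set 4 of the EGF/AngII batch). The numbers come from the labels. For 48 h the culture set was an alternative block, since the labels and the methods differ on the mice. Alternatives with that control omitted were chosen after seeing the data. p-values measure the spread between these cultures.

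The members, all 9 of which are named throughout, and the pathway and marker lists were chosen with earlier results of these data known. 1 further gene of the inhibitor list is not reported here. Nearest genes were those with the highest Pearson's r. The procedure was tested on simulated data for U46619 against control with 200 changed genes of at least 5 FPM. After 24 h, among 14653 genes, 65 of 66 4-fold changes, 57 of 67 2-fold changes and 31 of 67 1.5-fold changes were recovered, with 5 false among 158 calls. After 48 h, among 15796 genes, 63 of 66, 54 of 67 and 28 of 67 were recovered, with 2 false among 147 calls. A first simulation with genes of any level had recovered under 70% of the 4-fold changes, and the changed genes were then limited to that level.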

Additional observations from a re-analysis of the deposited data

Results flagged for a closer look

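In 11 of 117 sets of libraries (1 member in 1 group), the highest library stood apart from the others by Dixon's criterion on FPM. Chance alone reaches it in about 1 of 20 sets that are independent and normally distributed. These sets share mice, and FPM differ widely between mice, so the number of flags cannot be set against that rate.

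Serpine2 was far higher in mouse 6 than in the other mice with U46619 (311 FPM, next 57.2), EGF+U46619 (197, next 39.5) and EGF+AngII+U46619 (303, next 40.2). After 48 h it was highest in set 1 of the EGF/U46619 batch with U46619 (229 FPM, next 87.2) and EGF+U46619 (214, next 75.6).

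Serpinb2 stood apart in mouse 5 with U46619 (12.3 FPM, next 4.62) and in mouse 3 with EGF+AngII (2.08 FPM, next 0.646). Tfpi stood apart in mouse 4 with AngII (229.6 FPM, next 114) and with EGF (292, next 122). In set 4 of the EGF/AngII batch, the EGF library of 48 h was highest for Plau (237 FPM, next 115) and for Tfpi (255, next 162.1).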

How the results depend on the processing

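Over all alternatives 0 results reversed, 741 kept their direction and side of the threshold or stayed within their spread, 30 became weaker, 5 stronger, and 25 counts moved by over 1.5 times. Only log2-fold changes could be labelled as reversed. The 741 include counts for comparisons that called 0 members in the main fit and in every alternative. The calls of Plaur against control at both time points held under every alternative run, and those of Serpinb2 with EGF+U46619 and EGF+AngII+U46619 after 24 h did so except with only the control and EGF+AngII+U46619 libraries in the fit, where Serpinb2 gave no value.

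Pairing by mouse mattered most after 24 h. Without the replicate block, U46619 against control called 1 member (Plaur), EGF+U46619 against EGF called 1 (Serpinb2) and U46619 against EGF called 0, and over all genes 1037 were DEG with U46619 against control in place of 3893, 1826 with EGF+U46619 in place of 4665, 105 with EGF+U46619 against EGF in place of 1877 and 24 with U46619 against EGF in place of 1618. After 48 h the same change gave 109 DEG with U46619 in place of 585, 100 with EGF+U46619 against EGF in place of 699 and 64 with U46619 against EGF in place of 467, and fewer than the 995 with EGF+U46619 against control. With only the groups compared in the fit, EGF+AngII+U46619 against control called 1, EGF+U46619 against EGF called 3, and both comparisons with EGF after 48 h called 0, where Plaur had an FDR of 0.0593 and 0.0588 in edgeR. Leaving out a mouse gave 2 to 3 members for U46619, 3 to 4 for EGF+U46619, 3 to 5 for EGF+AngII+U46619 against control, 3 to 5 for EGF+U46619 against EGF (3 without mouse 1) and 1 to 3 for U46619 against EGF (1 without mouse 1). Plau against EGF lost its call in most of these (without mouse 1, 3, 4 or 5, and for U46619 also mouse 6).

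After 48 h, without the FPM minimum, U46619 against control, EGF+U46619 against control and EGF+U46619 against EGF called 2 each, Serpinb2 being the other. With the culture set as the replicate block all 4 comparisons with U46619 called 2. In the EGF/U46619 batch alone they called 3, 5, 3 and 4, in the order of the report. With the control of set 4 of the EGF/AngII batch omitted as well as the culture set as block, chosen after seeing the data, they called 4, 6, 3 and 4, and omitting that control alone left Plaur as the member called. DESeq2 alone called 264 of all genes with EGF after 24 h in place of 4 and 1325 with EGF+AngII in place of 455. The cause was not tested. Depth limits Serpinb2 and Tfpi2 most, which had 0 counts in some control libraries of 24 h.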
